A study of Mus musculus with 74 samples.

Results

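Ion channel genes were followed from mammary primary tumor (PT) to lung metastasis (Lung met) in genetically engineered mice. The members are all rows of the deposited gene tables whose gene name begins with Kcn (potassium channels and their subunits), Cacn (voltage-gated calcium channel subunits) or Scn followed by a digit (sodium channel subunits). Over the 5 tables that hold tissue means, 83 such genes were listed. These were 53 of 18208 genes in the FVB Her2 table, 68 of 19321 in FVB C3Tag, 56 of 17363 in BALB PyMT-F1, 60 of 17404 in SEAGN PyMT-F1 and 57 of 17945 in a further PyMT-F1 table deposited under the name AKR. Of the 83 genes, 39 were listed in all 5 tables and 18 in a single table.

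Voltage-gated channels are pores that open when the membrane potential shifts. Sodium and calcium channels depolarise the cell, and calcium entering through them also acts as a signal inside it. Potassium channels let potassium leave and so set or restore the resting potential. The pore is built by alpha subunits, while beta, alpha2delta, gamma, KCNE and calcium-binding subunits change how the pore opens or how much of it reaches the surface. Epithelial tumor cells do not fire action potentials as nerve and muscle do, yet they transcribe many of these genes. In them, channels are known for roles in cell volume, cell cycle progression, secretion and migration.

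RNA was sequenced from 74 samples of 6 models, with 6 PT and 6 Lung met samples in each model apart from 7 and 7 in C3Tag. All mice were F1 females. The Her2, Myc and C3Tag mice came from transgenic FVB/N males crossed to FVB/NJ females. The mouse mammary tumor virus (MMTV) promoter drove the Her2 and Myc transgenes, and the C3(1) promoter the SV40 T antigen of C3Tag. The PyMT-F1 mice carried MMTV-driven polyoma middle T and had a transgenic FVB/N father and a BALB/cJ, SEA/GnJ or AKR/J mother. In the Her2, C3Tag and Myc models the primary tumor of animals with a single lesion was cut out and the animal aged on. In those animals PT and Lung met were taken at different times. All primary tumors of an animal were combined and sampled, and whole metastases were used, host lung cells included. The Myc table holds no tissue mean and was not analysed. Of the 36 PyMT-F1 samples, 23 carry a genotype label that names another strain than the title and 16 carry a source name that differs from the tissue label. The groups here follow the titles, and the AKR-named table was assigned to no strain.

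Each value below is the authors' least-squares mean of normalized counts over the samples of a tissue, written PT mean and Lung met mean. No value of a single animal was at hand, so the spread between animals and the depth of the libraries are unknown, and no difference below carries a test, an SD or an n of its own. A log2 ratio is log2 of the Lung met mean over the PT mean, so that 1 is a 2-fold higher and -1 a 2-fold lower mean in Lung met. The 5 tables were normalized separately, and levels are compared only within a table. A gene is counted as 2-fold apart when its ratio is at least 2-fold either way and the mean of both tissues is at least 10.

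A set of 5 channel genes had a Lung met mean at least 2-fold above PT in 3 or more tables: Scn3b, Kcnn3, Kcnk2, Kcnmb1 and Cacna1c. These were 5 of the 46 channel genes with a mean of both tissues of at least 10 in 3 or more tables (10.9%, background 1.88% of 16181 genes). They were picked for these ratios, and some passed that minimum through Lung met alone, so nothing is read from the share. RefSeq start-site windows (GRCm38.p6), 250 bases before to 50 after an annotated transcription start, were looked up for them. Kcnn3 and Kcnmb1 have 1 such window, Cacna1c 3 and Kcnk2 4. One window each is shown for Kcnn3, Kcnmb1, Kcnk2 and Cacna1c. For Cacna1c and Kcnk2 it was chosen because it holds the GC box GGGCGG, so that their higher G or C content beside the other genes follows in part from the choice. Capitals mark GGGCGG on the strand shown or its complement on the other.
Kcnn3 (chr3:89519914-89520213, plus strand): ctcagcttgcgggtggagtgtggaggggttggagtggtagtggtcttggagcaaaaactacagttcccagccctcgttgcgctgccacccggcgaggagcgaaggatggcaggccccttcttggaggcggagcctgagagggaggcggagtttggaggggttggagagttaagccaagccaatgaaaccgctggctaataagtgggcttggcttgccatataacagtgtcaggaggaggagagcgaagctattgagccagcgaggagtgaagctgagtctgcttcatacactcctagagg
Kcnmb1 (chr11:33962763-33963062, plus strand): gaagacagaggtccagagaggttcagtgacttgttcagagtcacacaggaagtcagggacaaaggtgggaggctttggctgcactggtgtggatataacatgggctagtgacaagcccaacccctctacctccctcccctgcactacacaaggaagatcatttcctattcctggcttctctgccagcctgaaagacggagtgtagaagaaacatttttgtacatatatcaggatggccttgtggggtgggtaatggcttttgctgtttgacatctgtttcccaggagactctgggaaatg
Kcnk2, start 3 (chr1:189343658-189343957, minus strand): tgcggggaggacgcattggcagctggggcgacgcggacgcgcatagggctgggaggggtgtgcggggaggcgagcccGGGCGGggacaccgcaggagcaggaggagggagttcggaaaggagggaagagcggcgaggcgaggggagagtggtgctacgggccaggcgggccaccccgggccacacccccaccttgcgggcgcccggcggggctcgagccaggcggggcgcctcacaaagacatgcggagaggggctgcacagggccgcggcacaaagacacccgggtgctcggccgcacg
Cacna1c, start 2 (chr6:119108446-119108745, minus strand): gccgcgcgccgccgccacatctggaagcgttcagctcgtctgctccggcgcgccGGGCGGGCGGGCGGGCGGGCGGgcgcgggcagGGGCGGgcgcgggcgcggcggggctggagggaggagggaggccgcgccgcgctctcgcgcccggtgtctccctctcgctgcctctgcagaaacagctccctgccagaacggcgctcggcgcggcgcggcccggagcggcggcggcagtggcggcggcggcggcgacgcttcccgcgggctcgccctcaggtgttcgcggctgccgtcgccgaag
The Cacna1c window is 81.3% G or C with 57 CpG dinucleotides and 6 copies of GGGCGG, the first 5 of which overlap their neighbours. The 2 other Cacna1c windows are each 51.3% G or C, with 3 and 7 CpG and no copy. The Kcnk2 window is 74.7% G or C with 33 CpG and 1 copy, and the other Kcnk2 windows run from 43.0% to 68.7% with no copy. The Kcnn3 window is 57.7% G or C with 11 CpG and no copy, and the Kcnmb1 window 49.7% with 1 CpG and no copy. Over the 90 windows of the 61 channel genes that matched by symbol, 45.6% held GGGCGG, against 35.7% of all 32851 windows. TATAAA was in 7.78% of the channel windows against 13.6% of all, and the median G or C content was 58.2% against 52.7%. TGACGTCA, the CArG box and TTCAGCACC, searched on both strands like the others, were in 0 of the 90 windows and in 1.79%, 1.63% and 0.371% of all windows.

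In each table the shares of channel genes at least 2-fold higher and lower lay above those of all genes. Some of these shares rest on 1 or 2 genes and lay near the background, as for lower genes in Her2 and C3Tag. Channel genes were read at lower levels than all genes, and some passed the minimum through 1 tissue alone. Nothing is therefore read from the shares. The more numerous direction differed between tables. In Her2, 8 of the 47 channel genes past the minimum were at least 2-fold higher in Lung met (17.0%, background 2.25% of all genes) and 1 was lower (2.13%, background 1.42%). In C3Tag, 18 of 64 were higher (28.1%, background 7.52%) and 2 lower (3.13%, background 1.61%). In BALB PyMT-F1, 2 of 40 were higher (5%, background 2.07%) and 3 lower (7.5%, background 2.14%). In SEAGN PyMT-F1, 5 of 44 were higher (11.4%, background 2.65%) and 7 lower (15.9%, background 2.9%). In the AKR-named table, 10 of 52 were higher (19.2%, background 7.16%) and 3 lower (5.77%, background 1.63%). Among the genes at least 2-fold apart, higher thus outnumbered lower in Her2, C3Tag and the AKR-named table, and lower outnumbered higher in SEAGN (7 against 5) and, by 1 gene, in BALB. Counting any difference, 51.1% of the channel genes had the higher mean in Lung met in Her2 (all genes 49.5%), 65.6% in C3Tag (51.4%), 37.5% in BALB (56.5%), 52.3% in SEAGN (53.5%) and 61.5% in the AKR-named table (50.7%).

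The middle of the channel genes lay close to 0. Their median log2 ratio was 0.03 against -0.00 in Her2, 0.25 against 0.01 in C3Tag, -0.13 against 0.03 in BALB, 0.05 against 0.02 in SEAGN and 0.13 against 0.01 in the AKR-named table. The plot of both distributions shows where the counts come from, a few channel genes far from 0 on either side of a dense middle.

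**Figure D1:**
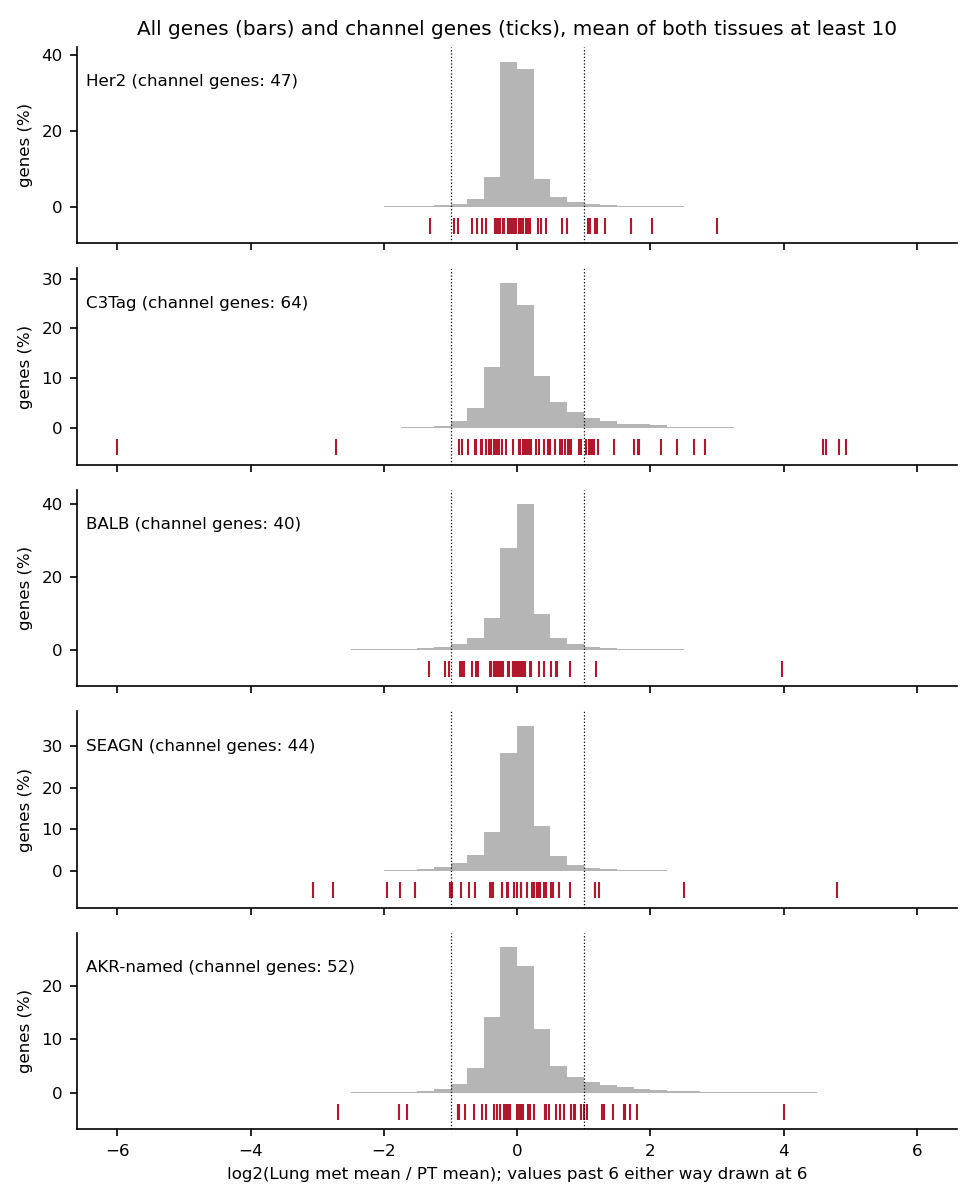
Distribution of log2(Lung met mean / PT mean) in each table, as the percentage of all genes per 0.25 log2 (grey bars) with each channel gene as a red tick, all with a mean of both tissues of at least 10. Dotted lines mark 2-fold, and values beyond 6 are drawn at 6. Channel genes lie mainly within the grey peak, with single ticks far out such as Scn3b at 3.00 in Her2, 3.98 in BALB and 4.80 in SEAGN.

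Channel genes are read at low levels, where ratios scatter more. The median mean of both tissues was 63.2 for the channel genes against 519.8 for all genes in Her2, 99.0 against 437.2 in C3Tag, 45.1 against 170.5 in BALB, 50.2 against 161.1 in SEAGN and 46.3 against 565.2 in the AKR-named table. Within the band of means from 10 to under 100, an alternative chosen after seeing the data, the background shares were higher in every table. In that band, 7 of 30 channel genes were at least 2-fold higher in Her2 (23.3%, background 5.24%) and 0 lower (background 3.44%). In C3Tag, 9 of 32 were higher (28.1%, background 10.5%) and 1 lower (3.13%, background 2.86%). In BALB, 1 of 29 was higher (3.45%, background 3.43%) and 3 lower (10.3%, background 4.15%). In SEAGN, 4 of 32 were higher (12.5%, background 4.69%) and 6 lower (18.8%, background 5.39%). In the AKR-named table, 8 of 36 were higher (22.2%, background 14.6%) and 3 lower (8.33%, background 3.85%). The higher share in BALB and the lower share in C3Tag were thus close to the background.

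**Figure D2:**
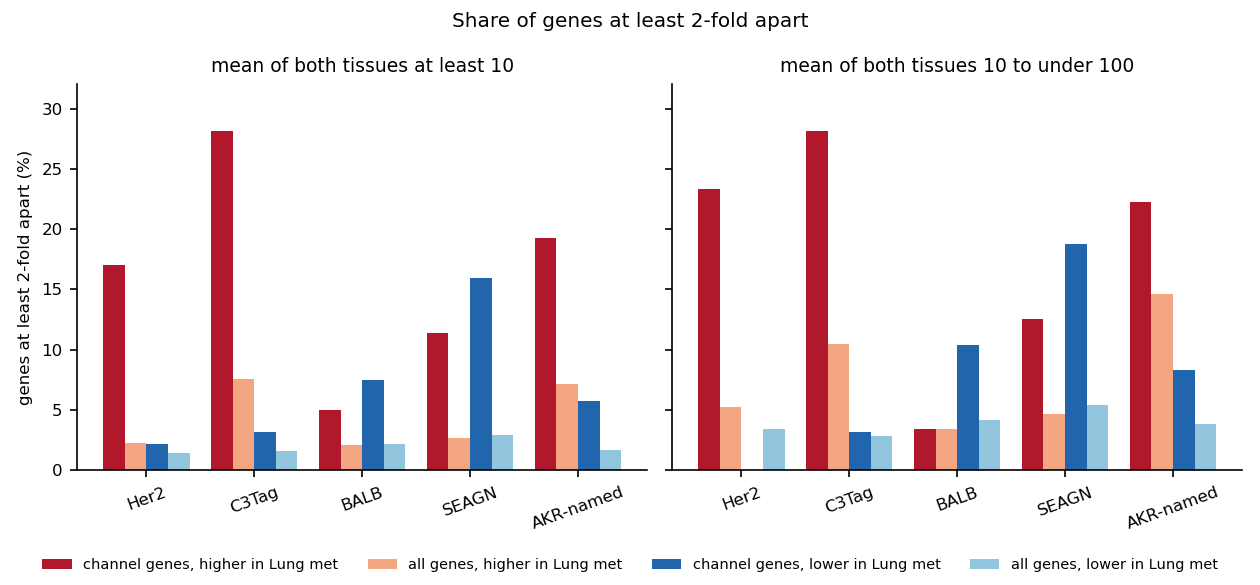
Percentage of channel genes (dark bars) and of all genes (light bars) at least 2-fold higher (red) or lower (blue) in Lung met, per table, with a mean of both tissues of at least 10 (left) or from 10 to under 100 (right). The channel bars for higher genes reach 28.1% in C3Tag in both panels, while in the right panel BALB has 3.45% beside a background of 3.43%.

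Some calls rest on 1 tissue alone, since a gene can pass the minimum through its high tissue. Among the higher genes, the PT mean was under 10 for 2 in Her2, 2 in C3Tag, 1 in BALB, 3 in SEAGN and 1 in the AKR-named table. Among the lower genes, the Lung met mean was under 10 for 0, 1, 1, 3 and 1 in the same order. Without the minimum, 9 of 53 channel genes were at least 2-fold higher in Her2 (background 2.38%) and 2 lower (background 1.43%). In C3Tag 18 of 68 were higher (background 7.42%) and 2 lower (background 1.7%). In BALB 5 of 56 were higher (background 2.26%) and 5 lower (background 2.4%), and in SEAGN 6 of 58 were higher (background 2.86%) and 9 lower (background 3.22%). Under the AKR name, 11 of 56 were higher (background 7.31%) and 3 lower (background 1.73%). Of the 83 genes, 8 passed the minimum in no table, namely Cacna2d4, Cacng7, Kcnd3, Kcnip1, Kcnj12, Kcnmb3, Kcnmb4os2 and Scn2a. Means were blank for Kcnk3 and Kcnk5 in SEAGN and for Kcne1l in the AKR-named table.

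**Figure D3:**
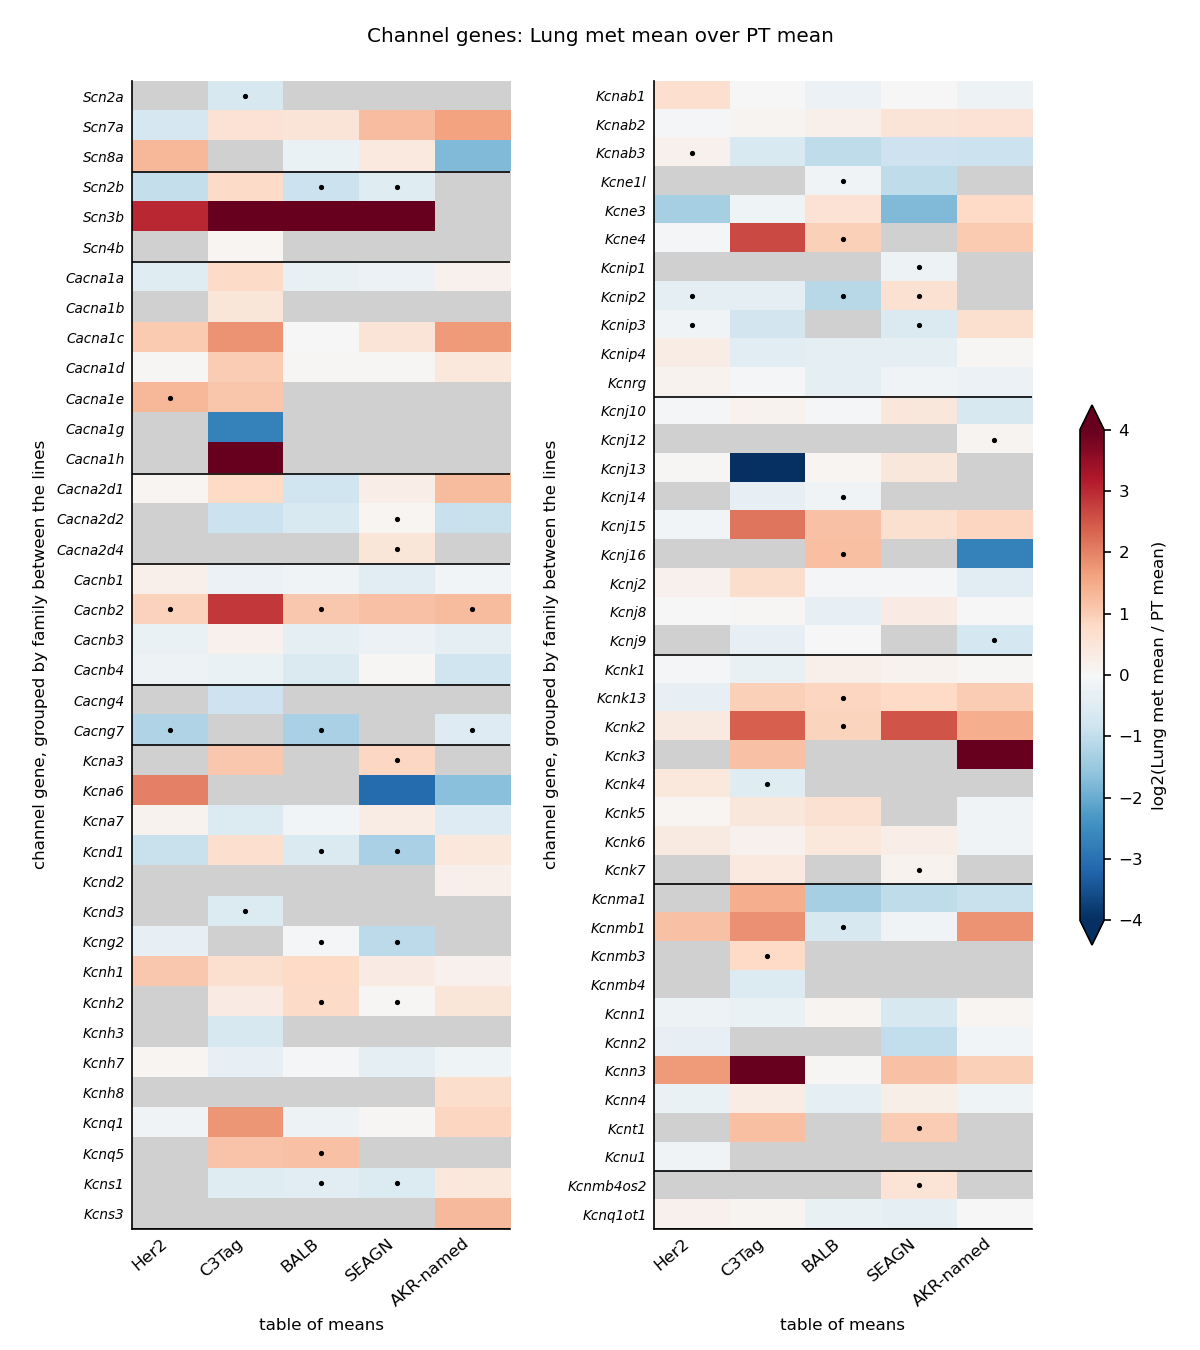
Log2(Lung met mean / PT mean) of 78 channel genes (rows, grouped by family between the lines) in 5 tables (columns). Red is higher and blue lower in Lung met, colors stop at 4 either way, grey marks no value, and a dot marks a mean of both tissues under 10. The Scn3b row is red in each of its 4 tables, and rows such as Kcna6 and Scn8a hold both colors.

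Among the sodium channel genes, Scn3b stood out in every table that lists it. Scn3b encodes a beta subunit, a single-pass membrane protein that modulates the gating of the pore and its delivery to the surface. The gene lies at chr9:40269217-40291618 (GRCm38, plus strand). Its mean was 13.9 in PT and 112 in Lung met in Her2, a log2 ratio of 3.00. In C3Tag it was 8.15 in PT and 231 in Lung met, a log2 ratio of 4.83. In BALB the means were 5.04 and 79.3, a log2 ratio of 3.98, and in SEAGN 5.99 and 167, a log2 ratio of 4.80. The Lung met mean was thus 8.01-fold the PT mean in Her2 and more than that in the other 3 tables. The gene was not listed in the AKR-named table, and no value is given for it there. Ranked among all genes past the minimum, 99.7% of them had a lower ratio in Her2 and 99.9% in each of the other 3 tables. Of the 34 channel genes past the minimum in these 4 tables, Scn3b was the 1 at least 2-fold higher in all (2.94%, background 0.569% of 11946 genes). In C3Tag, BALB and SEAGN it passed the minimum through Lung met alone, so that its log2 ratio had to be above 0 there, and its rank and this share are a description from which nothing is read.

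Other beta subunit genes had smaller ratios. Scn2b had 22.8 and 11.9 in Her2, a log2 ratio of -0.94, and 25.03 and 42.3 in C3Tag, a log2 ratio of 0.76. Scn4b was listed in C3Tag alone, with 13.6 and 14.5.

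The sodium channel alpha subunit genes had ratios of either sign. Scn8a, a neuronal sodium channel, was 76.7 and 192 in Her2, a log2 ratio of 1.32, but 141 and 41.1 in the AKR-named table, a log2 ratio of -1.78. In BALB it was 72.0 and 59.9, and in SEAGN 51.4 and 67.6. Scn7a, which encodes a channel that senses extracellular sodium and is not opened by voltage, was 128 and 299 in SEAGN and 217 and 656 in the AKR-named table, log2 ratios of 1.22 and 1.60. In C3Tag (231 and 342) and BALB (124 and 176) its ratios were 0.57 and 0.51, and in Her2 (402 and 251) -0.68.

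Among the pores of calcium channels, Cacna1c was at least 2-fold higher in 3 tables. Cacna1c encodes the L-type pore of cardiac and smooth muscle. Its PT and Lung met means were 207 and 722 in C3Tag, a log2 ratio of 1.81. The AKR-named table had 39.9 and 129 (1.69), and Her2 55.7 and 116 (1.06). In SEAGN the means were 121 and 171, and in BALB 93.0 and 91.5, so that BALB alone had no higher mean in Lung met. Cacna1d, a second L-type pore, had log2 ratios of 0.04 in Her2, 0.05 in BALB, 0.06 in SEAGN, 0.42 in the AKR-named table and 1.03 in C3Tag, where the means were 149 and 304. Cacna1a, the P/Q-type pore of nerve endings, stayed within 2-fold in all 5 tables, with ratios from -0.47 in Her2 to 0.78 in C3Tag.

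Cacna1h and Cacna1g, T-type genes whose channels open at low voltage, were listed in C3Tag alone and went opposite ways there. Cacna1h (chr17:25374285-25433783, minus strand) had a PT mean of 20.4 and a Lung met mean of 506.5, a log2 ratio of 4.63. Cacna1g (chr11:94408391-94474198, minus strand) had a PT mean of 119 and a Lung met mean of 18.0, a log2 ratio of -2.72. Cacna1g was the 53rd lowest ratio of the 19320 C3Tag genes with means. Cacna1e, the R-type pore, was 27.5 and 59.4 in C3Tag.

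The auxiliary calcium channel genes were closer in PT and Lung met. Cacnb3, a cytoplasmic beta subunit and the most abundant calcium channel gene per kilobase of exon in PT in each of the 5 tables, had log2 ratios from -0.40 in BALB to 0.16 in C3Tag. Cacnb1 stayed between -0.41 and 0.20 and Cacnb4 between -0.79 and 0.05. Cacnb2 was low in PT, and its means were 11.2 and 78.7 in C3Tag (log2 ratio 2.82) and 6.48 and 14.5 in SEAGN (1.17). In Her2, BALB and the AKR-named table the mean of both tissues of Cacnb2 was under 10, and the Lung met mean was the higher one in all 3. Cacna2d1, the alpha2delta subunit bound by gabapentin, was 40.2 and 97.2 in the AKR-named table, a log2 ratio of 1.27, and 39.8 and 22.9 in BALB, a log2 ratio of -0.80. Cacna2d2 had means of 19.5 and 10.7 in C3Tag, 16.4 and 10.7 in BALB, and 29.1 and 15.8 in the AKR-named table. Cacng4, a gamma subunit better known as a partner of glutamate receptors, was 250.04 and 141 in C3Tag.

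Among the calcium-activated potassium channels, the small-conductance gene Kcnn3 was at least 2-fold higher in 3 tables. In C3Tag the PT mean was 19.7 and the Lung met mean 603, a log2 ratio of 4.94 and the highest of any channel gene in any table. In Her2 the means were 8.203 and 26.7 (1.70) and in SEAGN 22.4 and 50.03 (1.16). The AKR-named table came just short of 2-fold, with 24.0 and 46.6 (0.96), and BALB showed next to no difference, with 19.1 and 19.6. Kcnn3 lies at chr3:89520164-89675132 on the plus strand, and its promoter window is the first of those printed above.

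The other calcium-activated channels varied between tables. Kcnn4, the intermediate-conductance channel of red cells, T cells and epithelia, was the most abundant channel gene per kilobase in PT in Her2, BALB, SEAGN and the AKR-named table. Its PT and Lung met means were 22494 and 18638 in Her2, 1979 and 2408 in C3Tag, 3415 and 2601 in BALB, 2335 and 2737 in SEAGN, and 13294 and 11834 in the AKR-named table, all within 2-fold. Kcnn1 stayed between log2 ratios of -0.64 and 0.12. Kcnma1, the pore of the large-conductance channel, was higher in C3Tag (140.4 and 386, log2 ratio 1.46) and lower in BALB (60.7 and 24.4, -1.32) and SEAGN (46.5 and 23.0, -1.01). In the AKR-named table it was 41.5 and 22.5. Kcnmb1, the beta subunit that tunes this pore in smooth muscle, was 9.63 and 34.2 in C3Tag (1.83), 10.4 and 36.2 in the AKR-named table (1.79) and 12.4 and 27.9 in Her2 (1.16). In SEAGN it was 12.1 and 10.9, and in BALB 7.31 and 4.70. Kcnt1, a sodium-activated channel, was 50.1 and 116 in C3Tag.

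**Figure D4:**
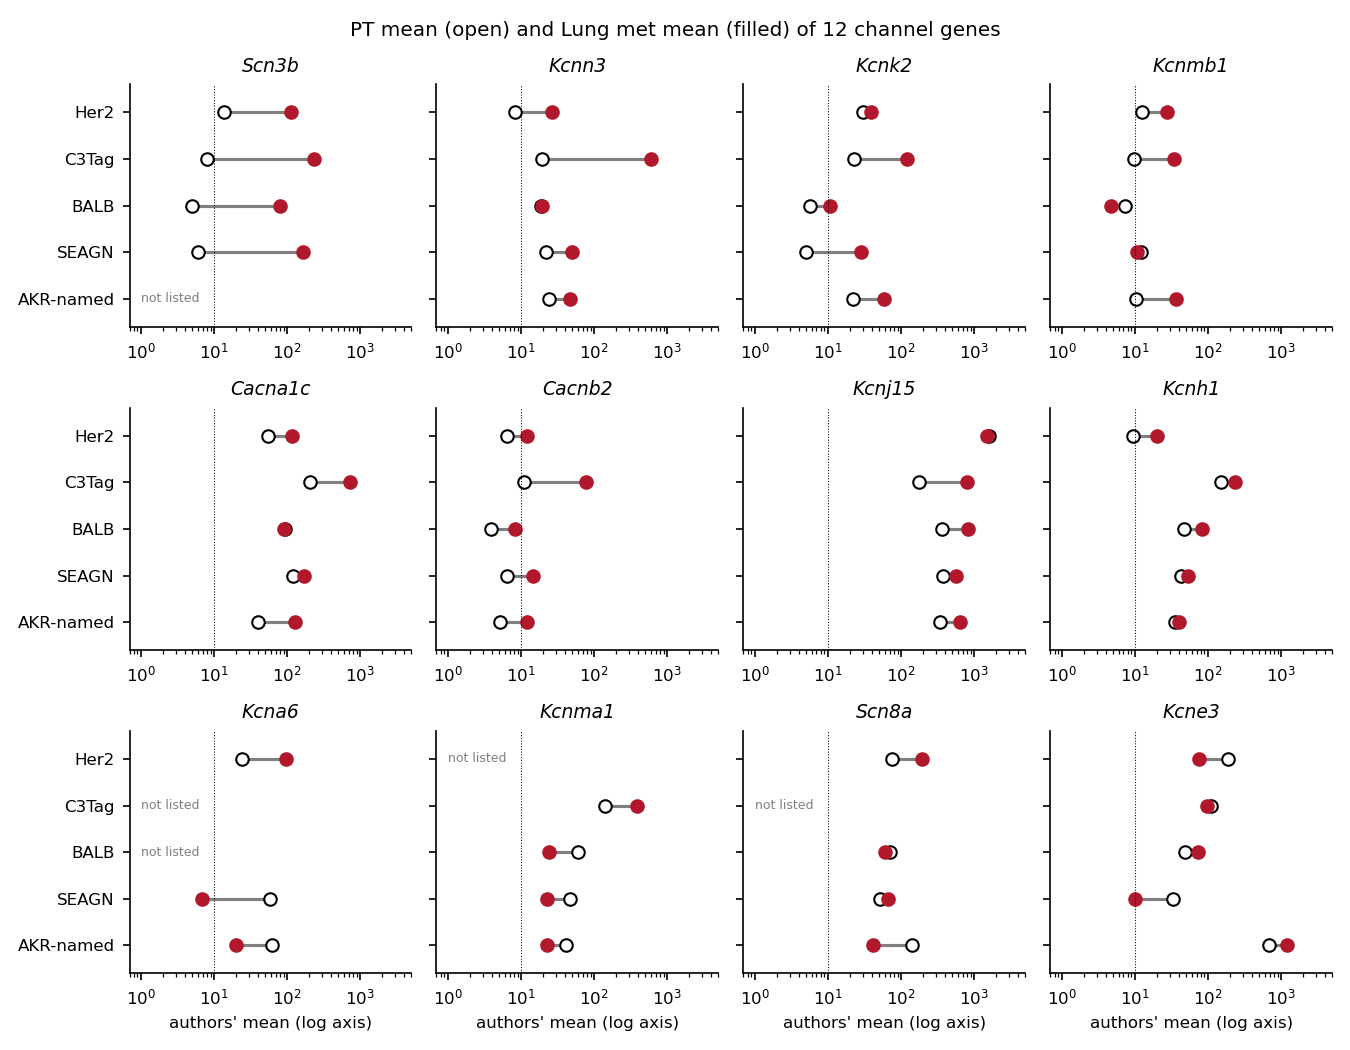
PT mean (open circles) and Lung met mean (filled circles) of 12 channel genes on a log axis, with 1 line per table and no error, since only means were deposited. The dotted line marks a mean of 10. Scn3b runs left to right in its 4 tables, Kcnn3 has its widest gap in C3Tag, and Kcna6, Kcnma1 and Scn8a run in opposite directions in different tables.

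Several voltage-gated potassium pores had higher means in Lung met. Kcnh1, an ether-a-go-go channel studied in tumors, was 9.38 and 20.0 in Her2, 150 and 234 in C3Tag, 47.5 and 82.2 in BALB, 42.5 and 53.7 in SEAGN, and 36.0 and 40.7 in the AKR-named table. The Lung met mean of Kcnh1 was the higher in all 5 tables, by 2-fold or more in Her2 alone. Kcnq1, which recycles potassium in heart and epithelia, was 196 and 664 in C3Tag, a log2 ratio of 1.76, and between -0.22 and 0.86 elsewhere. Kcna3 and Kcnq5 were at least 2-fold higher in C3Tag (1.08 and 1.13), and Kcns3 in the AKR-named table (1.30).

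Kcna6 was split between tables. Kcna6, a Shaker-type pore, was 23.9 and 97.5 in Her2 (2.03), 58.2 and 6.94 in SEAGN (-3.07) and 62.4 and 19.8 in the AKR-named table (-1.66). Kcna6, Kcnma1 and Scn8a were among 4 channel genes at least 2-fold higher in 1 table and lower in another, of 53 past the minimum in 2 or more tables (7.55%, background 1.01%). That background covers genes of all levels, while channel genes are read at low ones. In SEAGN, Kcna6 passed the minimum through PT alone, so nothing is read from the share. Whether any model differs from another was not tested.

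Of 34 channel genes past the minimum in Her2, C3Tag, BALB and SEAGN, 6 had the higher mean in Lung met in all 4 (17.6%, background 17.0%), among them Cacna1d, Kcnh1, Kcnk6, Kcnn3 and Scn3b. That share is close to that of all genes. In the other direction, 1 was lower in all 4 (2.94%, background 9.07%). These directions depend in part on scale. Centred on the median of all genes, the counts stayed at 6 higher (background 15.2%) and 1 lower (background 10.6%). With both tissues set to equal sums, 4 of the 34 were higher in all (background 15.6%) and 0 lower (background 0.536%). Cacna1d and Kcnn3 were then no longer higher in all 4 tables, while Kcnh1, Kcnk6 and Scn3b still were.

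The accessory subunits of voltage-gated potassium channels were for the most part within 2-fold. Kcne3, a KCNE subunit that holds Kcnq1 channels open in epithelia, was at least 2-fold lower in 2 tables, at 189.9 and 76.4 in Her2 (log2 ratio -1.31) and 33.9 and 10.04 in SEAGN (-1.75). It was 681 and 1194 in the AKR-named table (0.81). Kcne4, which silences Kcnq1, was 21.7 and 136 in C3Tag (2.65) and 14.7 and 30.4 in the AKR-named table (2.07-fold). Kcnab3 was 16.4 and 8.03 in BALB (-1.03), and Kcne1l 18.1 and 9.02 in SEAGN, just past 2-fold. Kcnab1 and Kcnab2, cytoplasmic beta subunits, stayed between -0.25 and 0.67. Kcnip4 and Kcnrg also stayed within 2-fold in all 5 tables.

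One inward rectifier had the widest gap of any member. Inward rectifiers pass potassium more readily into the cell than out and hold the resting potential. Kcnj13, a channel of the choroid plexus and retinal pigment epithelium, had a PT mean of 46386 and a Lung met mean of 6.09 in C3Tag, a log2 ratio of -12.89 and the 4th lowest of 19320 genes. In Her2 the means were 24.4 and 24.9, in BALB 21.9 and 23.3, and in SEAGN 18.6 and 25.2. By rank within its table, the C3Tag PT mean of this gene was out of keeping with those of the other tables. In C3Tag 99.9% of genes had a lower PT mean, against 15.9% in Her2, 21.1% in BALB and 19.4% in SEAGN. Kcnj13 was among 28 C3Tag genes past the minimum with a log2 ratio below -5.75. Such genes numbered 0 in Her2, 2 in BALB, 1 in SEAGN and 1 in the AKR-named table. The C3Tag PT means hold another extreme as well, since Gm22614 alone made up 38.3% of their sum and 1.35% of the Lung met sum. With both tissues set to equal sums, every C3Tag log2 ratio would be 0.80 higher, every AKR-named one 0.11 lower and those of Her2, BALB and SEAGN 0.03 to 0.06 lower. On that scale 33 instead of 18 C3Tag channel genes were at least 2-fold higher. The share with the higher mean in Lung met was 93.8% instead of 65.6%. The shift raises every C3Tag gene alike, and the shares of all genes on that scale are not given here. Nothing is therefore read from these counts. C3Tag ratios from -0.80 to 0 change sign with this shift. As deposited, the median log2 ratio of all C3Tag genes was 0.01. Whether 1 or several of the 7 PT samples carry the Kcnj13 reads could not be seen from a mean. The gene overlaps Gigyf2 on the opposite strand.

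The remaining inward rectifiers were closer to 1. Kcnj15 was 178 and 791 in C3Tag (2.15), 365 and 832 in BALB (1.19), 373 and 576 in SEAGN (0.63), 347 and 634 in the AKR-named table (0.87) and 1625 and 1495 in Her2 (-0.12). Kcnj16, which pairs with related rectifiers in kidney, was 37.8 and 5.85 in the AKR-named table (-2.69). Kcnj2, the classical strong rectifier, and Kcnj8, the pore of the vascular ATP-sensitive channel, stayed within 2-fold in all 5 tables, with ratios from -0.46 to 0.71 and from -0.32 to 0.32. Kcnj10 did so too.

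The tandem-pore potassium channels, which leak at rest, held several of the most abundant members. Kcnk1 was 5888 and 5551 in Her2, 1710.0 and 1381 in C3Tag, 600.2 and 687 in BALB, 481 and 534 in SEAGN, and 3204 and 3330.1 in the AKR-named table. Kcnk5, a channel opened by alkaline pH, was 5523 and 5829 in Her2, 497 and 684 in C3Tag, 409 and 619 in BALB, and 2208 and 2019 in the AKR-named table. Kcnk6 stayed between -0.14 and 0.41. None of these was 2-fold apart. The less abundant Kcnk2, opened by stretch and lipids, was 22.8 and 120.0 in C3Tag (2.40), 5.07 and 28.7 in SEAGN (2.50) and 21.8 and 59.0 in the AKR-named table (1.44). In Her2 Kcnk2 was 30.5 and 39.0, and in BALB 5.76 and 10.6. Kcnk3, closed by acid, was 3.12 and 50.01 in the AKR-named table (4.00) and 38.1 and 85.2 in C3Tag (1.16). Kcnk13 was 21.5 and 43.4 in the AKR-named table (1.01). No tandem-pore gene was 2-fold lower in any table.

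Of the 32 channel genes past the minimum in all 5 tables, 19 were 2-fold apart in none (59.4%, background 86.3%). These included Cacna1a, Cacnb1, Cacnb3, Cacnb4, Kcna7, Kcnab1, Kcnab2, Kcnh7, Kcnip4, Kcnj10, Kcnj2, Kcnj8, Kcnk1, Kcnk6, Kcnn1, Kcnn4, Kcnq1ot1 and Kcnrg. Among them were Kcnn4, Kcnk1 and Cacnb3, each of which was among the 5 most abundant members per kilobase in PT in every table. Kcnq1ot1, an imprinted noncoding RNA read from within Kcnq1 on the opposite strand, had ratios from -0.40 to 0.18. Whether the authors' counting used strand is not given in the sources used here, so reads of Kcnq1 and Kcnq1ot1 may not be told apart. The same holds for other members that overlap a protein-coding gene on the opposite strand. Among them are Kcnmb1 with Kcnip1, Kcnh1 with Hhat, Cacna1c with Dcp1b, Cacna1h with Tpsg1, and Cacna1d with Dcp1a and Chdh.

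Genes that act with these channels were listed apart from the members, 30 in all, of which 16 to 18 had means in a table. At least 2-fold higher were 0 of 15 past the minimum in Her2 (background 2.25%), 3 of 17 in C3Tag (7.52%), 0 of 11 in BALB (2.07%), 2 of 12 in SEAGN (2.65%) and 4 of 16 in the AKR-named table (7.16%). Lower were 0, 1, 0, 1 and 0 in the same order, with backgrounds of 1.42%, 1.61%, 2.14%, 2.9% and 1.63%. Gem, a small GTPase that inhibits calcium channels by binding their beta subunits, was higher in Lung met in all 5 tables. Its means were 40.5 and 79.0 in Her2, 113 and 254 in C3Tag, 10.2 and 20.1 in BALB, 13.5 and 32.2 in SEAGN, and 32.2 and 125 in the AKR-named table, log2 ratios of 0.96, 1.16, 0.98, 1.25 and 1.96. Its relatives Rem1 and Rrad had ratios of 1.90 and 1.25 in the AKR-named table. Fgf14 and Fgf13, which bind sodium channel tails, were 6.90 and 99.5 and 30.4 and 7.11 in C3Tag, log2 ratios of 3.85 and -2.10. Stac2, which binds L-type channels, was 3650.2 and 1325 in SEAGN, a log2 ratio of -1.46. Abcc9, the partner of Kcnj8 in vascular cells, stayed between -0.46 and 0.25.

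The cell make-up of PT and Lung met samples also differed. In bulk tissue, fewer cells of a type and less RNA per cell cannot be told apart. Of 7 alveolar markers, 5 had means, and 4 or 5 of them were at least 2-fold higher in Lung met in each table, their median log2 ratio lying between 3.37 in BALB and 4.71 in Her2. Ager, a marker of type I alveolar cells, was 62.5 and 1847 in Her2 and 214 and 9532 in the AKR-named table. The summed endothelial markers were higher too, with log2 ratios of their sums from 0.69 in BALB and Her2 to 1.77 in the AKR-named table. The summed fibroblast markers were lower, with log2 ratios of their sums from -0.17 in C3Tag to -2.38 in SEAGN. Those sums are mostly collagen reads, with Col1a1 at 7343 and 1047 in SEAGN, while Pdgfra was the higher in Lung met in all 5 tables (0.44 to 0.94) and Dcn in C3Tag (0.75). Skeletal muscle markers were lower in 4 tables, where sums ran from 72.8 to 1140.1 in PT and from 7.67 to 54.1 in Lung met. Tumor epithelial markers were all within 2-fold in each table. Their part in the channel results was not tested.

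Some of those marker values stand beside single channel genes. The smooth muscle and pericyte list, whose cells are known to use Kcnmb1, Cacna1c and Kcnma1, had median log2 ratios of 0.52 in Her2, 0.04 in C3Tag, -0.54 in BALB, 0.49 in SEAGN and 0.98 in the AKR-named table, the last 2 each from 3 of its 6 genes. In the AKR-named table those 3 were Des (50.9 and 440.5), Tagln (1630.4 and 3214) and Rgs5 (1260.2 and 1109), log2 ratios of 3.11, 0.98 and -0.18. Kcnmb1, Cacna1c and Kcnma1 had log2 ratios of 1.79, 1.69 and -0.88 there, and of 1.83, 1.81 and 1.46 in C3Tag. SEAGN had -0.15, 0.50 and -1.01 in the same order. BALB had -0.64 (mean of both tissues under 10), -0.02 and -1.32. In Her2, where Kcnma1 was not listed, Kcnmb1 and Cacna1c had 1.16 and 1.06. Schwann and nerve markers, beside the neuronal Kcna6 and Scn8a, had medians from -0.27 to -0.02. Their members differed. S100b was 647 and 319 in Her2 (-1.02) and 62.6 and 15.5 in SEAGN (-2.02). Its log2 ratio was -0.64 in BALB, -0.05 in C3Tag and 0.31 in the AKR-named table. Sox10 stayed between -0.35 and 0.09. Tnnt2, the 1 cardiac marker listed, had log2 ratios from -1.52 in SEAGN to 0.75 in the AKR-named table. The part of these cells in the channel values was not tested.

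**Figure D5:**
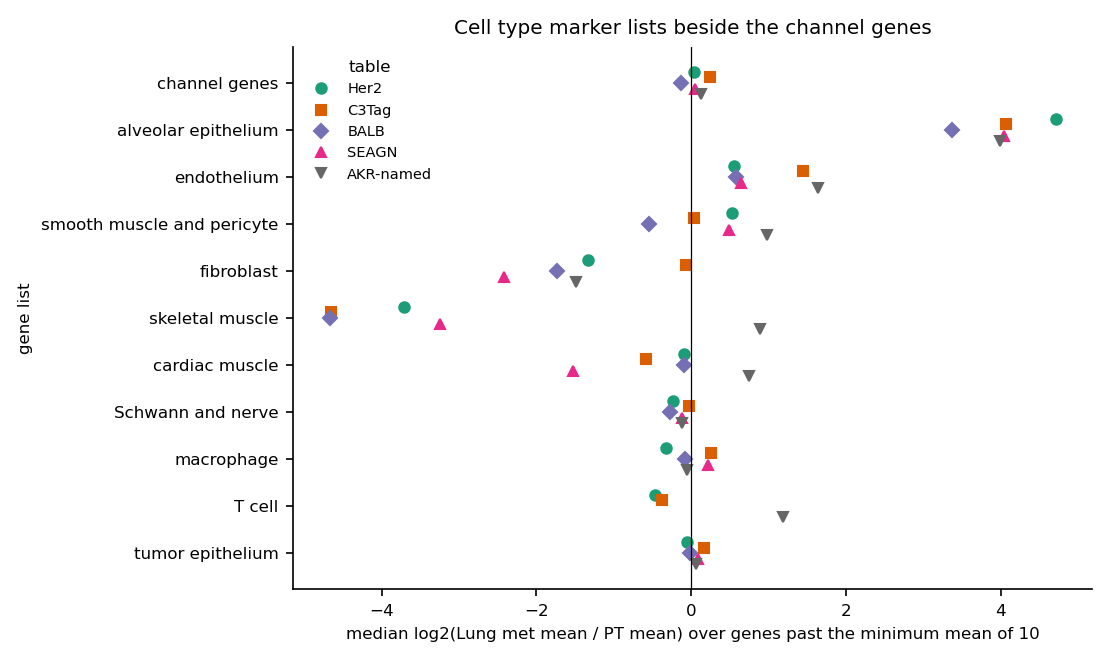
Median log2(Lung met mean / PT mean) of each cell type marker list and, in the top row, of the channel genes, with 1 symbol per table, over genes with a mean of both tissues of at least 10. Alveolar medians lie from 3.37 to 4.71 and fibroblast medians from -2.42 to -0.06, while the channel genes lie from -0.13 to 0.25. No symbol is drawn for T cell markers in BALB and SEAGN, where none passed the minimum.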

How the data were processed

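Total RNA of PT and Lung met samples was sequenced. Per the study's methods, the authors aligned and counted reads per gene in Partek Flow and compared Lung met with PT by Gene Specific Analysis in the driver models and by DESeq2 in the PyMT-F1 models. The submitters' processing notes name STAR 2.7.8a and mm39, while the methods name other builds. Their library kits differ as well, and no use of strand in counting is given. The signal values used here are the least-squares means of normalized counts per tissue as the authors deposited them, which carry no SD and no depth, and the normalization is not given in the sources used here. The AKR-named table has the same kind of values and was tied to no strain. The tables also hold the authors' p-values, FDR, ratios and fold changes, which were not used, and the Myc table holds p-values and FDR only and was left out. The Her2, C3Tag and AKR-named tables use Ensembl mouse identifiers, and both other tables those of the BALB/cJ annotation.

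From the means, log2(Lung met / PT) was computed for every gene with Python 3.11.15 and pandas 2.3.3, without a pseudocount. A gene was counted at 2-fold or more with a mean of both tissues of at least 10, and the background is the same count over all genes of that table. No test was possible on means, although the design named tests for tables of samples. Named genes are, per table and past the minimum, the 6 highest and 6 lowest ratios and the 2 highest means of each family, any gene 2-fold the same way in 4 or more tables, and Scn3b and Cacna1g. Kcna3, Kcnq5, Kcns3, Kcnt1, Kcne1l and Cacna1e, Scn4b and the genes listed by a shared pattern were named after their values were seen. Members, partners and marker lists were chosen with earlier results of these data known. Gene positions and merged exon lengths come from GENCODE M21 (GRCm38), used for names, neighbours and levels per kilobase, and not for the authors' build. The counting was tested on simulated tables. Alternatives were a 1.5-fold or 4-fold threshold, a minimum of 50 or none, a pseudocount of 1, centring on the median, equal sums, protein-coding names and, chosen after seeing the data, a band of means. Some member genes entered the counts and are not reported here by name.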

Additional observations from a re-analysis of the deposited data

How the results depend on the processing

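The counts of channel genes moved mainly with the threshold and the minimum. Both other thresholds apply to the channel genes past the minimum of 10, 47 in Her2, 64 in C3Tag, 40 in BALB, 44 in SEAGN and 52 in the AKR-named table. The shares of all genes at these thresholds and at a minimum of 50 are not given here. Not every table and direction is listed. Nothing about channel genes beside all genes is therefore read from these counts. With a 1.5-fold threshold, lower genes numbered 5 in Her2, 7 in C3Tag, 9 in BALB, 11 in SEAGN and 8 in the AKR-named table, and higher genes 4 in BALB and 18 in the AKR-named table. With a 4-fold threshold, higher genes numbered 2 in Her2, 8 in C3Tag, 1 in BALB, 2 in SEAGN and 1 in the AKR-named table, and lower genes 0 in Her2, 0 in BALB, 2 in SEAGN and 1 in the AKR-named table. With a minimum of 50, higher genes numbered 4 in Her2, 1 in BALB, 2 in SEAGN and 4 in the AKR-named table, and lower genes 0 in BALB, 2 in SEAGN and 1 in the AKR-named table. Without a minimum, lower genes numbered 2 in Her2 and 5 in BALB, and higher genes 5 in BALB. In the band of means from 10 to under 100, where fewer genes are counted, lower genes numbered 0 in Her2 and 1 in C3Tag, and higher genes 9 in C3Tag and 1 in BALB. With equal sums, 33 C3Tag genes were higher and the share with a higher mean in Lung met was 93.8%. That scaling raises all C3Tag genes alike, so nothing is read from either value. A minimum or a pseudocount cannot change the sign of a ratio, and both scalings moved ratios by less than 2-fold. Ratios of named genes at least 2-fold apart could thus not change sign, and nothing is read from their keeping it. With equal sums, 2 of the 60 ratios of named genes changed sign, both of them under 2-fold and in C3Tag. These were Kcnh3 (from -0.63 to 0.17) and Kcnip3 (from -0.74 to 0.06). With a pseudocount of 1 the ratios of Kcnab3 in BALB (-0.95) and Kcnma1 in SEAGN (-0.98) came under 2-fold.

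No paired analysis was possible because the tables hold 1 mean per tissue and no value of an animal, although the titles give PT and Lung met of an animal the same number. No sample was left out in turn for the same reason. The depth is unknown, so no error is given for low means such as the PT means of Scn3b, and a ratio carried by 1 animal cannot be told from one shared by all.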
